A study of Mus musculus with 20 samples.

Results

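Interferon-stimulated genes are the genes that cells switch on when they meet an interferon, and 45 of them were followed here through a short exposure of T cells to IL-2. Type I interferon acts through JAK1 and TYK2 on a complex that holds STAT2 and IRF9 and binds the interferon-stimulated response element (ISRE). Interferon gamma acts through JAK1 and JAK2 and the gamma-activated site (GAS), and IL-2 acts through JAK1 and JAK3 mainly on STAT5, which binds sites of the same kind. The members were a fixed list of gene symbols with no threshold on a measured value, and the list was drawn up with earlier results of these data known. A row was found for 44 of the 45 symbols, of 23992 symbols in the tables, and Rnf213 was not analysed here. By role, they were 15 interferon-inducible GTPases, 14 antiviral effectors, 5 transcription factors and 4 nucleic acid sensors. The others were a group of 3 (Parp9, Parp14 and Ifi35), the ubiquitin-like modifier Isg15 with its protease Usp18, and the chemokine Cxcl10.

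RNA was sequenced from Tregs and CD8+ T cells of mouse spleen and lymph node. Tregs, CD4+ T cells marked by Foxp3, came from B6-Foxp3EGFP mice by a sort on GFP, and CD8+ T cells were taken from C57BL/6J mice with an isolation kit, with no sort named (the strain label of every sample reads C57BL/6N). Cells were unstimulated (labelled 0 hr) or received 200 nM IL-2, or 200 nM of its partial agonist IL-2-REH, a form with reduced binding to the common gamma chain, for 90 min or 4 hr. Each of the 5 Treg groups had 3 libraries, with replicate numbers 1 to 3, and each of the 5 CD8+ groups had 1 library. No library held cells cultured without cytokine for 90 min or 4 hr, so in comparisons with unstimulated cells the cytokine and the time in culture cannot be told apart, and these comparisons share their control libraries. IL-2-REH against IL-2 at the same time has no such limit. In bulk RNA, fewer cells of a type and less RNA per cell cannot be told apart.

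Libraries held 20201392 to 63903764 reads on genes. Levels are given as RPKM, reads scaled to transcript length and mapped reads. Foxp3 and Cd8a marked their cell types: the Treg marker list summed to 590 to 1176 RPKM in Tregs and 158.2 to 288 in CD8+ cells, and the CD8 T cell list to 89.2 to 258 and 425 to 987. Both lists hold Cd3e (84.4 to 260 RPKM over all libraries), which made up most of each sum in the other cell type. Cd8a was at 0.0879 to 1.84 RPKM in Tregs, and Foxp3 at 0.482 to 0.999 in CD8+ cells. RNA of macrophage markers was found in every library and moved with the groups. Its sum was 17.0, 91.6 and 65.9 RPKM in unstimulated Tregs 1 to 3, 7.63 to 48.5 in Tregs given a cytokine, and 41.7 in unstimulated against 13.4 to 21.6 in treated CD8+ cells. The plasmacytoid dendritic cell list summed to 3.20, 25.5 and 18.6 RPKM in unstimulated Tregs 1 to 3 and to 3.57 to 9.35 after a cytokine, and in CD8+ cells to 24.9 before and 6.55 to 10.9 after. Pacsin1 and Ccr9 made up most of that sum, while Siglech, the more specific marker, was at 0.154, 0.732 and 0.233 RPKM in unstimulated Tregs, at up to 0.724 in treated ones, and between 0.230 and 0.306 in all CD8+ libraries. The NK cell list summed to 0.256, 6.23 and 3.86 RPKM in unstimulated Tregs 1 to 3, and to 15.99 in unstimulated CD8+ cells. After 90 min and 4 hr the CD8+ sums were 8.77 and 12.76 RPKM with IL-2, and 8.57 and 12.43 with IL-2-REH. By STAT5 phosphorylation, the paper reports a response of NK cells to IL-2 and none to IL-2-REH. C1qa and Ncr1 were each at 0 in 1 library. The part of macrophages, dendritic cells and NK cells in the results below was not tested, in Tregs or in CD8+ cells. The unstimulated Treg library of replicate 1 stood apart: Ifngr1, a chain of the interferon gamma receptor, was at 499 RPKM there and at 93.4 and 99.7 in replicates 2 and 3. It was the lowest of the 3 unstimulated libraries for 33 of the 41 members with a mean of at least 1 RPKM in Tregs, against 54.1% of all such genes. Results that rest on it are given with and without it.

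The RefSeq table of promoter windows (GRCm38.p6, 250 bases before to 50 after a start) held 32 of the 44 members. The windows were searched on both strands for GAAANNGAAA, the core of the ISRE, and for TTCNNNGAA, the GAS. The former was in the window of 22 of the 32 members, against 3.99% of all 27025 symbols, and the latter in 14, against 9.55%. Both were present for 9 members, against 0.614%, and 7 of these 9 were GTPases, of 11 GTPases with a window. Of 11 antiviral effectors with a window, 7 held the ISRE and 2 held both. The windows of Ifi47, Irf7, Irf9, Oasl2 and Xaf1 held neither. Igtp, Irgm2, Tgtp1 and Tgtp2 shared an arrangement, noticed after the windows had been read, in which the GAS starts 11 bases before the ISRE. Only 5 of the 27025 symbols had it, and the fifth was Gm12185. The bases around the motifs were also much alike in these members, so they cannot be counted as separate occurrences. Gm12250, Igtp and Irgm2 all lie on chromosome 11, from 58183843 to 58222783 in mm10, and Gbp5 and Gbp2 lie on chromosome 3, starting at 142496934 and 142620663. These matches are descriptions and say nothing of which factor binds.

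The GTPase stretches upstream of the start are shown because these genes were higher with IL-2 in CD8+ cells. Every GAS and ISRE match within a stretch is in capitals. A further ISRE match of Gm12250, 91 bases before its start, lies outside the stretch shown. Each stretch is read 5′ to 3′ on the strand of its gene.
Igtp (chr11:58199496-58199546, + strand): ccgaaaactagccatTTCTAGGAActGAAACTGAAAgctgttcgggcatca
Irgm2 (chr11:58214887-58214937, + strand): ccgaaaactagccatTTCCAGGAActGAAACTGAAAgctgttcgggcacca
Tgtp1 (chr11:48992299-48992349, - strand): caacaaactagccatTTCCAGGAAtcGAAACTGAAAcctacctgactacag
Tgtp2 (chr11:49064258-49064308, - strand): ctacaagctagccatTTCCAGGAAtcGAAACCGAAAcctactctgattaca
Gm12250 (chr11:58183767-58183821, + strand): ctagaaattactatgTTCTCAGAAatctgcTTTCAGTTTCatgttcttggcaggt
Gbp2 (chr3:142620589-142620628, + strand): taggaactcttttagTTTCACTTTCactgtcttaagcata

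Gbp5 had the largest rise called in Tregs, so its window is shown from its first GAS match to past its last, with the same capitals. It held an ISRE between a pair of GAS matches.
Gbp5 (chr3:142496684-142496905, + strand): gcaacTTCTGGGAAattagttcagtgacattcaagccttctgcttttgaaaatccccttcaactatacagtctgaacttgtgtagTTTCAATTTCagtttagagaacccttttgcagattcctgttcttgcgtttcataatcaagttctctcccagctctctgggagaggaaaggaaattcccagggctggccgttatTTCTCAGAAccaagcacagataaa

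The antiviral genes and Isg15 are shown for contrast, since they were not higher with IL-2 in CD8+ cells. In these stretches the capitals mark the ISRE alone, and no GAS match lay in the windows. The contrast does not hold for all members. Bst2, Oas1a, Isg20 and Ifit2 held a GAS match and were not higher with IL-2 in CD8+ cells either. Gbp2, Gbp3 and Irgm1 held the ISRE without a GAS match and were past 2-fold higher at 4 hr.
Ifit1 (chr19:34640770-34640828, + strand): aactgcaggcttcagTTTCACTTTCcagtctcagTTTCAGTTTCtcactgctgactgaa
Ifit3 (chr19:34583358-34583431, + strand): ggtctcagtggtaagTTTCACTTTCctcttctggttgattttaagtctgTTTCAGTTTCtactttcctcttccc
Isg15 (chr4:156200860-156200911, - strand): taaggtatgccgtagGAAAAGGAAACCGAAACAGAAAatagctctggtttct
Rsad2 (chr12:26456548-26456587, - strand): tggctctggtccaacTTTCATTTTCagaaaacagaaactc

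The members differed widely in level. Over the 15 Treg libraries the highest mean RPKM was that of Igtp (99.8), an immunity-related GTPase, followed by the transcription factor Irf1 (88.0), Ifi47 (61.1), Gbp2 (58.5) and Gbp3 (49.8). Parp14 (35.6), Gbp5 (35.6), Irgm2 (32.5), Irf9 (32.1) and Ifi35 (30.5) came next, and their ranges over libraries overlapped. The lowest were Mx1 (0.737), Rsad2 (0.763) and Oas2 (0.871), all antiviral effectors. With these levels, the fewest reads on any member were 20 in a Treg library and 26 in a CD8+ library, and the median member had 795 to 5093 reads. Oas2 and Rsad2 fell below the mean of 1 RPKM that was required in CD8+ cells, which left 42 members there.

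Unstimulated CD8+ cells were above all 3 unstimulated Treg libraries for 7 of 42 members, against 21.7% of all genes, and below all 3 for 14, against 35%. Neither share stood far from the background. The members above were Tgtp1, Tgtp2, Ddx58, Ifit3, Mx1, Oas3 and Oasl2. Those below included Gbp3 and Irgm2, and Gbp3 was at 7.74 RPKM in CD8+ cells and 42.0, 29.4 and 30.7 in Tregs. With IL-2 at 4 hr, CD8+ cells were above the 3 Treg libraries for 20 members, against 23.7%, and below for 6, against 33.4%. Of 15 GTPases, 11 were among those 20. These counts carry no replicate error on the CD8+ side.

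**Figure D1:**
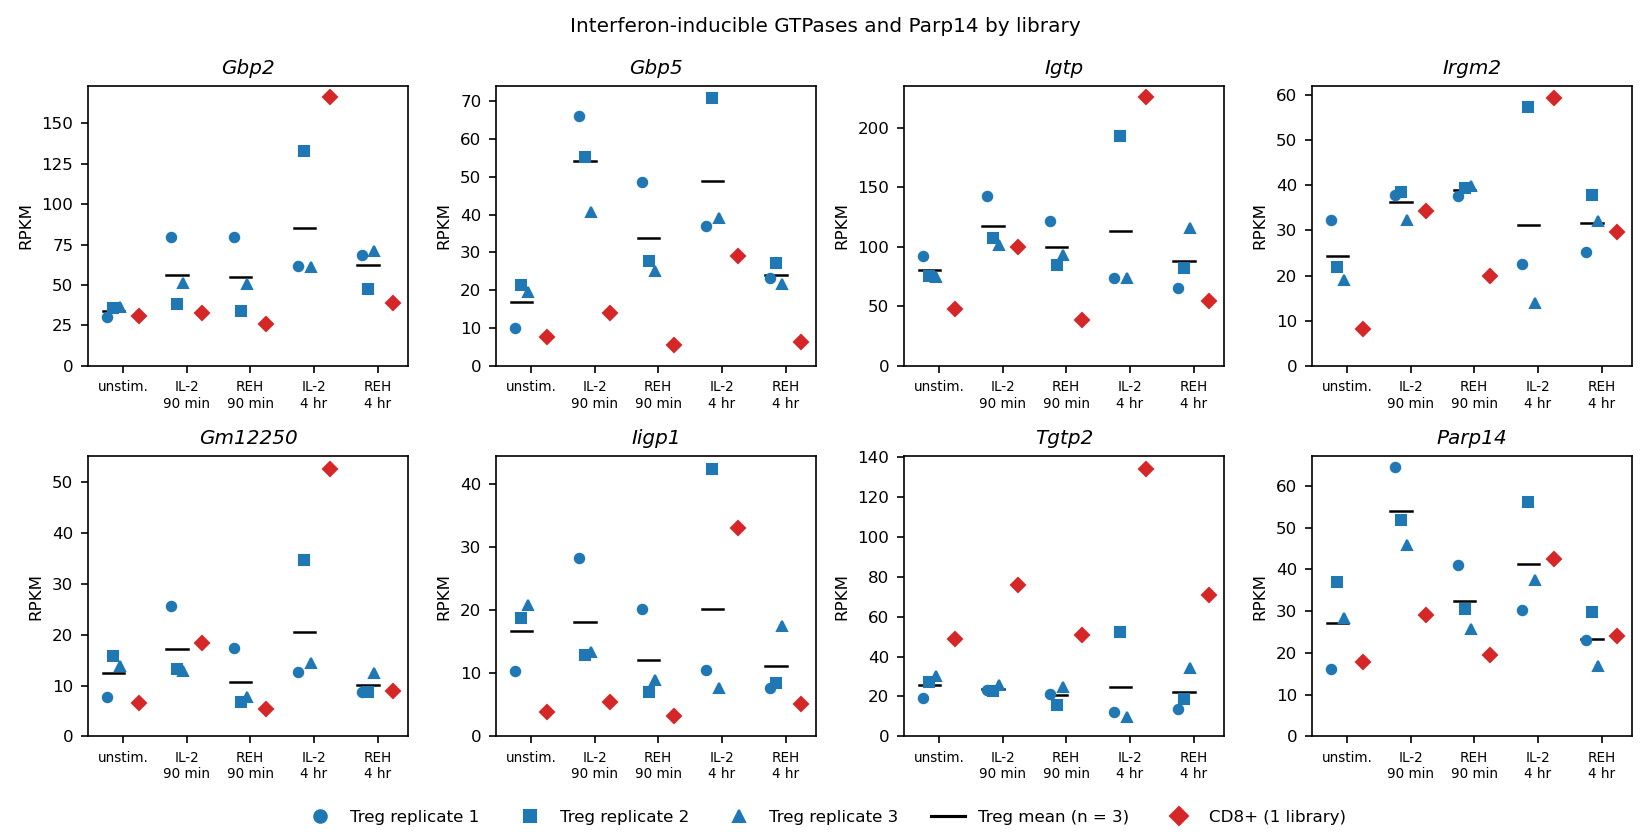
RPKM (vertical axis, from 0) of 7 GTPases and Parp14 in each library by group. Blue symbols are Treg libraries by replicate number, bars their means (n = 3), and red diamonds the single CD8+ library; Gbp2 reached 166.1 RPKM in CD8+ cells with IL-2 at 4 hr and 133 in Treg replicate 2.

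In CD8+ cells, IL-2 at 4 hr was accompanied by higher RNA of nearly the whole GTPase group. Immunity-related GTPases and guanylate-binding proteins coat and disrupt vacuoles that hold pathogens. With 1 library a group there is no test, and a log2 ratio of RPKM + 1 above 1 or under -1, a 2-fold change, was taken as the mark. At 4 hr 14 members were past 2-fold higher, against 1.31% of 10021 genes, and 13 of them were GTPases. In turn, 4 members were past 2-fold lower, against 3.4%. The median of the 15 GTPases was 1.49 on the log2 scale and that of all genes -0.07.

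Gm12250, an immunity-related GTPase, was at 6.55 RPKM in unstimulated CD8+ cells, 18.3 with IL-2 at 90 min and 52.7 at 4 hr. With IL-2-REH it was at 5.29 and 8.95 RPKM. Iigp1, which belongs to the same family, went from 3.87 RPKM to 5.38 and 33.1 under IL-2 and to 3.28 and 5.10 under IL-2-REH. Both were thus several times higher with IL-2 at 4 hr than in any other CD8+ library. Igtp was at 47.7 RPKM in unstimulated cells, 99.6 and 226 under IL-2, and 38.6 and 54.2 under IL-2-REH. Gbp2 was at 30.9, 32.7 and 166.1 RPKM in unstimulated cells and with IL-2 at 90 min and 4 hr, and at 25.8 and 38.9 with IL-2-REH. For Gbp2, then, the higher level was seen at 4 hr and not at 90 min. Tgtp1 read 46.5, 83.0 and 148 RPKM in the same order, and 49.3 and 72.2 with IL-2-REH. Its near-identical neighbour Tgtp2 gave 48.8, 76.0 and 134, and the split of reads between the pair is uncertain. Irgm2 was the 1 member past 2-fold higher with IL-2-REH, at 8.12 RPKM in unstimulated cells, 34.2 and 59.4 under IL-2, and 19.9 and 29.6 under IL-2-REH. Log2 ratios at 4 hr with IL-2 were 1.80 for Gbp5, 1.49 for Ifi47, 1.30 for Irgm1, 1.12 for Gbp6, 1.07 for Gbp3 and 1.03 for Gbp4. Gbp7 stood just under the mark at 0.89, and Gbp9 was the 1 GTPase below 0, at -0.48. Parp14, a mono-ADP-ribosyltransferase, was the member past 2-fold that was no GTPase, at 17.9 RPKM before and 42.4 at 4 hr.

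At 90 min the picture in CD8+ cells was smaller on the higher side. With IL-2, Gm12250, Igtp and Irgm2 were past 2-fold higher (3 members, against 2.81% of genes), and 10 were past 2-fold lower, against 4.43%. With IL-2-REH at 90 min 1 member was past 2-fold higher, against 2.46%, and 12 lower, against 6.11%. With IL-2-REH at 4 hr the counts were 1 higher, against 1.78%, and 12 lower, against 4.33%. Irgm2 was the member higher in both. From 90 min to 4 hr with IL-2, 10 members were past 2-fold higher, against 0.629%, and 0 lower, against 1.37%. Of these 10, 9 were GTPases and the other was the sensor Zbp1. From 90 min to 4 hr with IL-2-REH, Ifit2 was past 2-fold higher (1 member, against 1.05%) and Oasl2 lower (1 member, against 0.838%). In CD8+ cells with IL-2-REH at 90 min, the median of all genes was -0.12.

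**Figure D2:**
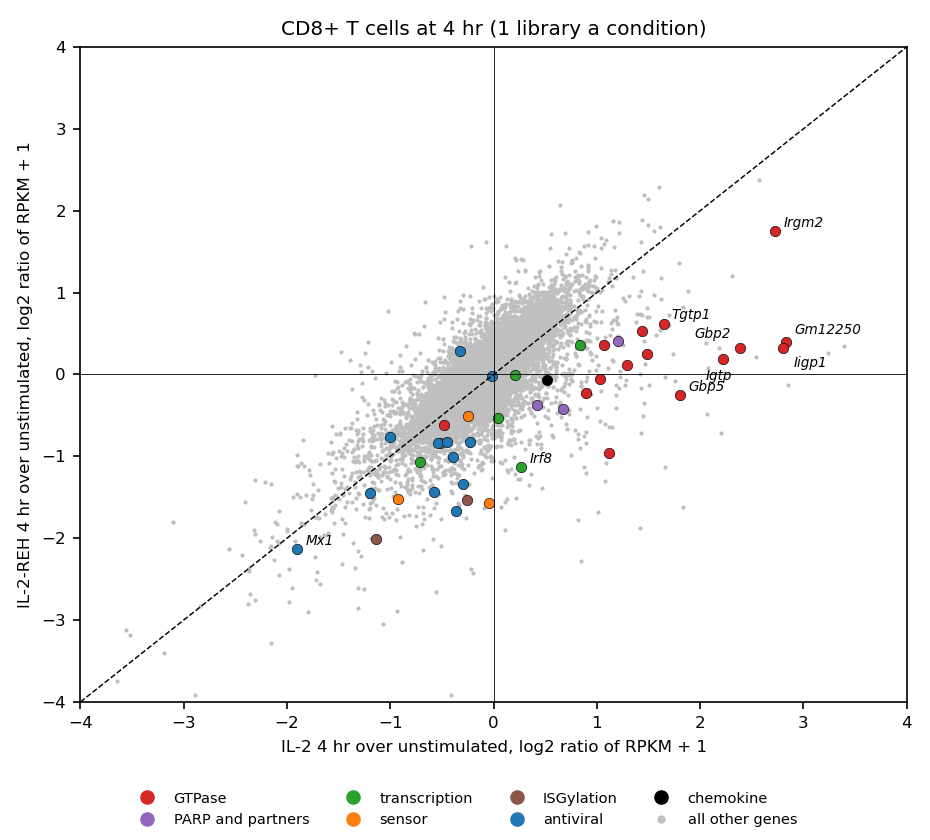
Log2 ratio of RPKM + 1 over unstimulated CD8+ cells at 4 hr, IL-2 on the horizontal and IL-2-REH on the vertical axis, for 42 members (coloured by role) and all other genes (grey; 4 genes lie outside the axes). The 15 GTPases lie below the dashed line of equal change, 14 of them right of 0, and each axis uses the same unstimulated library.

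Set directly against IL-2 in CD8+ cells, IL-2-REH gave lower levels of most members. At 4 hr 17 of 42 members were past 2-fold lower, against 1.68% of genes, and 0 were past 2-fold higher, against 0.549%. They were 11 GTPases with Bst2, Ifi35, Irf8, Rtp4, Usp18 and Zbp1. The lowest log2 ratios were those of Iigp1 (-2.48), Gm12250 (-2.43), Gbp6 (-2.08), Gbp2 (-2.07), Gbp5 (-2.05) and Igtp (-2.04). All 15 GTPases were below 0, and the median of the 42 members was -0.83 where that of all genes was 0.08. Only Ifit2 and Ifit3 were above 0. At 90 min 4 members were past 2-fold lower, against 0.808%, and 0 higher, against 0.0599%: Gm12250, Irf8, Igtp and Gbp5. All 4 were among the 17 at 4 hr. Irf8, a factor that works with other IRF proteins, was at 7.13 RPKM under IL-2 and 1.93 under IL-2-REH at 90 min, and at 4.60 and 1.13 at 4 hr.

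In Tregs, the read counts were tested with edgeR's quasi-likelihood test with Benjamini-Hochberg adjustment over 15009 genes, all 44 members among them. With IL-2 at 90 min 2 members rose and 0 fell, where 0.853% of genes were called. Gbp5, a guanylate-binding protein, was at 10.03, 21.4 and 19.5 RPKM in unstimulated libraries 1 to 3 and at 66.1, 55.3 and 40.8 with IL-2 at 90 min, so that the groups did not overlap. Its log2 fold change was 1.82 (SE 0.26, adjusted p = 0.0036 from edgeR). Parp14 was at 16.2, 37.0 and 28.3 RPKM and then at 64.6, 51.8 and 45.8, again without overlap. It rose by 1.16 on the log2 scale (SE 0.25, adjusted p = 0.044 from edgeR). Both were called with the replicate block as well. Without unstimulated library 2 or 3, or without any 1 of the libraries with IL-2, 1 member was called, Gbp5. Over all genes these fits called 44 to 108 as higher and 0 to 5 as lower, where 117 and 11 were called with all libraries.

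With IL-2 at 4 hr 4 members rose and 0 fell, where 2.27% of genes were called. Gbp5 rose by 1.60 on the log2 scale (SE 0.26, adjusted p = 0.0068 from edgeR), at 37.0, 70.8 and 39.2 RPKM. Gbp2 was at 29.96, 35.6 and 36.3 RPKM before and at 61.7, 133 and 61.2 with IL-2, a log2 fold change of 1.36 (SE 0.32, adjusted p = 0.042 from edgeR). All 3 libraries with IL-2 lay above all 3 without it, and replicate 2 lay far above the others. Stat2, a transcription factor of type I signalling, went from 11.3, 17.4 and 13.6 RPKM to 18.0, 29.2 and 23.6 (log2 fold change 0.82, SE 0.17, adjusted p = 0.027 from edgeR). Ifi35, an interferon-induced leucine zipper protein, went from 21.0, 28.6 and 21.7 RPKM to 35.5, 41.0 and 40.6 (log2 fold change 0.80, SE 0.19, adjusted p = 0.042 from edgeR). Stat2 overlaps Apof and Gbp2 overlaps Mir6381 in the annotation, so a part of their reads is uncertain. Without IL-2 library 3 at 4 hr, the shallowest, Gbp5 was the 1 member called of these 4, and the same count of 1 was left without unstimulated library 2 or 3. Without IL-2 library 2 at 4 hr, 3 members were called, Gbp5 as higher and Ifih1 and Irf7 as lower.

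Most GTPases that stood highest in CD8+ cells were not called in Tregs. Iigp1 was at 10.3, 18.8 and 20.9 RPKM in unstimulated Tregs 1 to 3 and at 10.6, 42.5 and 7.70 with IL-2 at 4 hr. Igtp was at 92.0, 75.5 and 74.9 RPKM and then at 74.0, 193 and 73.4. Tgtp1 was at 17.7, 26.7 and 29.4 RPKM and then at 11.4, 54.3 and 9.14. In each of these, replicate 2 alone was above all 3 unstimulated libraries. Replicate 2 was the highest of the 3 libraries with IL-2 at 4 hr for 35 of 41 members, against 58.2% of all genes, and it was also the deepest. The NK cell list summed to 0.387, 5.15 and 1.59 RPKM in replicates 1 to 3 of this group, and its part was not tested. Gm12250 was at 7.77, 15.9 and 13.9 RPKM before and at 12.7, 34.7 and 14.4 with IL-2 at 4 hr. Irgm2 was at 32.2, 21.9 and 19.0 RPKM and then at 22.5, 57.3 and 13.9. Of the 15 GTPases, 2 rose with IL-2 at 4 hr and 1 at 90 min, where 2.27% and 0.853% of all genes were called. Their log2 fold changes were above 0 for 10 of 15 at 4 hr and 11 of 15 at 90 min, with medians of 0.28 and 0.25 where all genes had -0.0017 and -0.062. Gbp3 rose when the replicate block was used (log2 fold change 0.90, SE 0.21, adjusted p = 0.022 from edgeR), from 42.0, 29.4 and 30.7 RPKM to 56.5, 51.0 and 72.7.

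**Figure D3:**
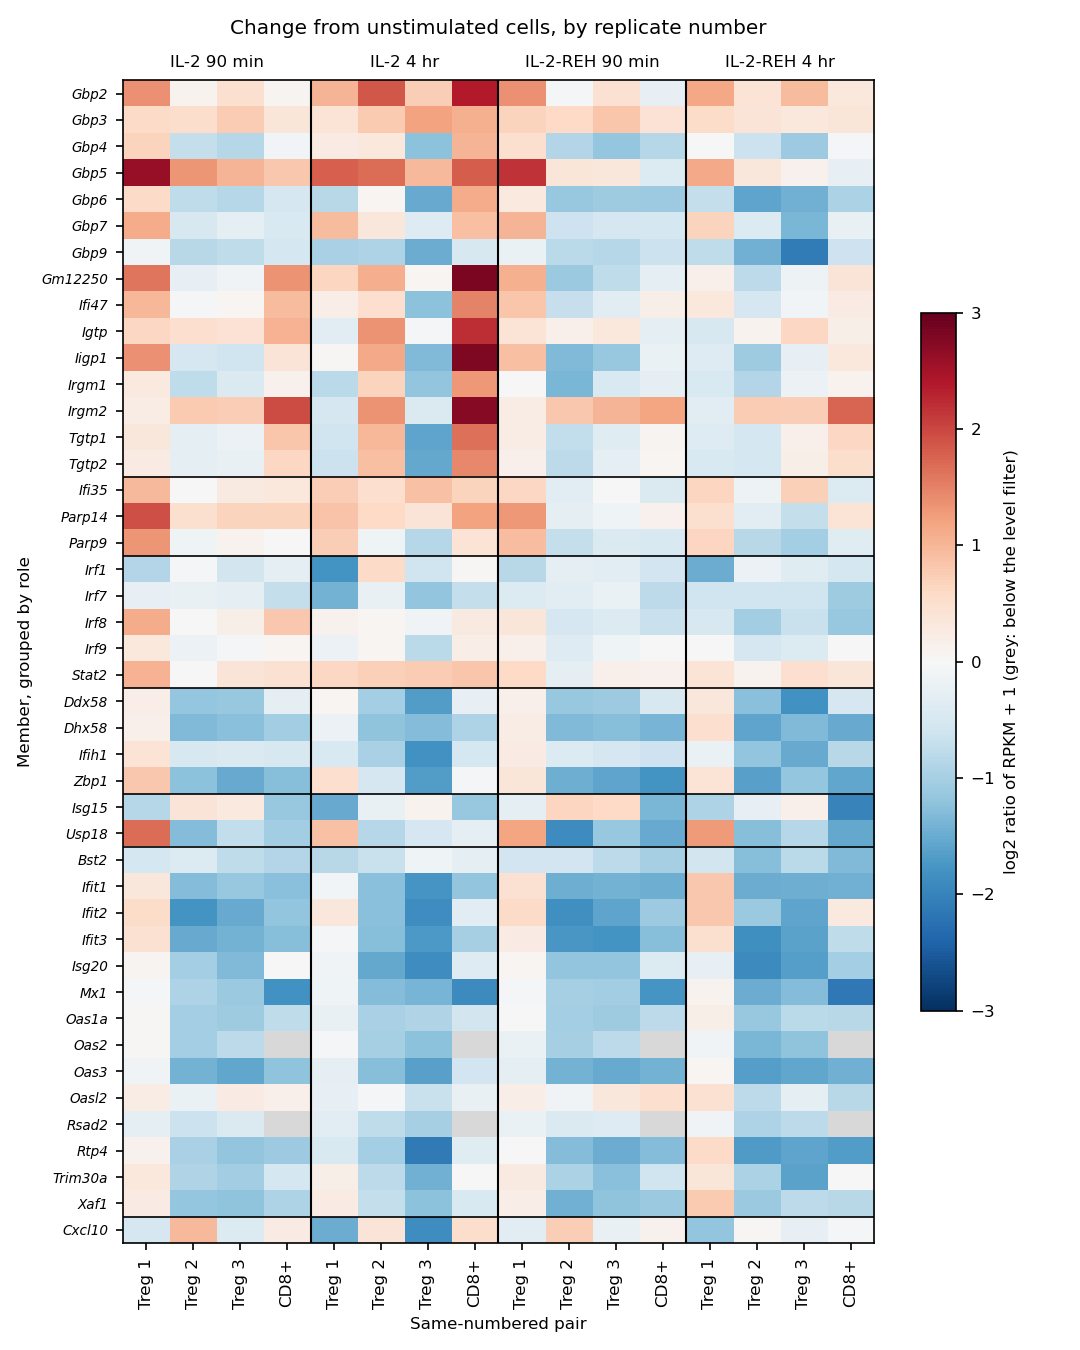
Log2 ratio of RPKM + 1 over the unstimulated library of the same number (colour, from -3 blue to 3 red) for 44 members grouped by role, in the 3 Treg pairs and the CD8+ pair. Pair 1 of the Tregs differs from pairs 2 and 3 in the sensors and antiviral effectors, and the highest GTPase ratios are in CD8+ cells with IL-2 at 4 hr.

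With IL-2-REH against unstimulated Tregs, 0 members were called at 90 min, where 0.0933% of genes were, and 0 at 4 hr, where 0.313% were. At 90 min 4 members were higher and 12 lower at an unadjusted p under 0.05 in edgeR, against 5.61% and 5.74% of genes. DESeq2 called 3, against 0.753%, and limma called 0. At 4 hr 3 members were higher and 20 lower at that unadjusted p, against 5.48% and 7.84%. DESeq2 then called 11, against 3.76%, and limma 0. Gbp5 was at 48.7, 27.6 and 24.97 RPKM with IL-2-REH at 90 min and at 23.2, 27.3 and 21.6 at 4 hr, above all 3 unstimulated libraries in both cases.

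**Figure D4:**
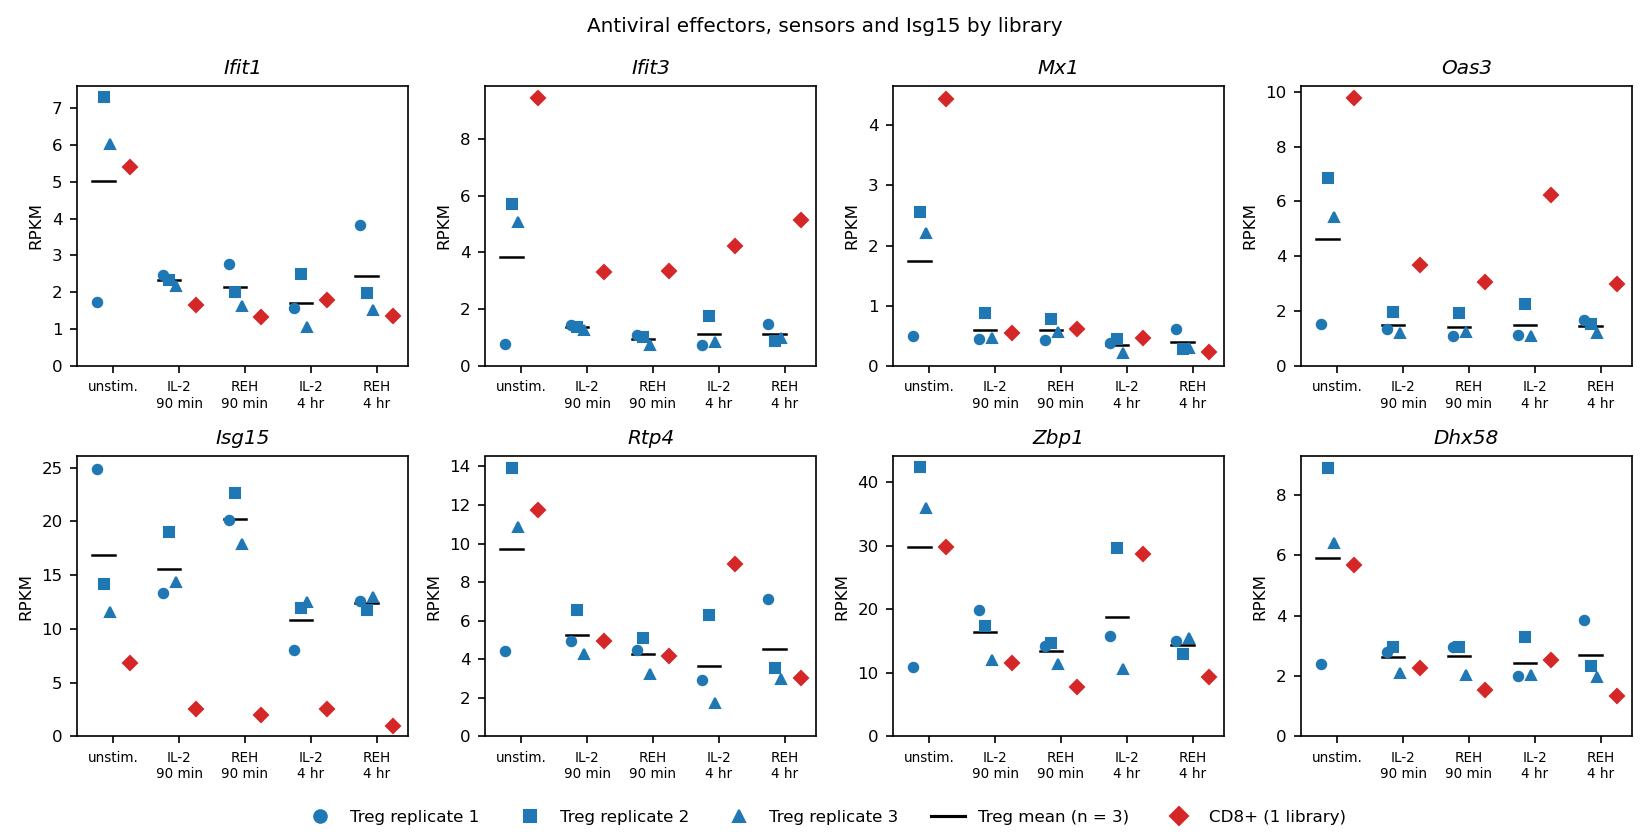
RPKM (vertical axis, from 0) of 8 antiviral effectors, sensors and Isg15 in each library by group, with the same symbols as in the plot of GTPases. Unstimulated Treg replicates 2 and 3 and the unstimulated CD8+ library lie above most libraries given a cytokine, and unstimulated Treg replicate 1 does not; Isg15 is highest in unstimulated Treg replicate 1.

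The antiviral effectors and the sensors were mostly lower in CD8+ cells given a cytokine. Ifit1 and Ifit3 bind foreign RNA, Mx1 belongs to the dynamin-like GTPases, and Oas3 makes the oligoadenylates that activate RNase L. Of the 14 antiviral effectors and 4 sensors, all but Oasl2 and Ifit2 were lower in all 4 treated CD8+ libraries. These comparisons share 1 unstimulated library, and the share of all genes lower in all 4 was not counted. Some differences were small, as for Isg20, at 5.11 RPKM before and 5.09 with IL-2 at 90 min. Median log2 ratios of the 12 antiviral effectors past the level filter ran from -1.09 to -0.42. Those of all genes ran from -0.12 to -0.02. Oasl2 was at 3.38 RPKM before and at 3.85 and 5.23 at 90 min with IL-2 and IL-2-REH, and Ifit2 was at 10.5 before and 13.1 with IL-2-REH at 4 hr. Mx1 was at 4.44 RPKM in unstimulated CD8+ cells and at 0.238 to 0.604 in the others. Ifit1 was at 5.40 RPKM and then between 1.33 and 1.80. Oas3 was at 9.78 RPKM and then between 2.99 and 6.24. With IL-2 at 4 hr, Ifit1, Ifit3, Isg15 and Mx1 were the members past 2-fold lower. Isg15, which is joined to other proteins much as ubiquitin is, was at 6.83 RPKM and then at 2.53, 2.02, 2.56 and 0.950. Zbp1, a sensor of Z-form nucleic acids, was at 29.7 RPKM before, 11.6 and 28.8 under IL-2, and 7.83 and 9.38 under IL-2-REH. Its level with IL-2 at 4 hr was thus near that of unstimulated cells. Rtp4 (11.8 RPKM before) was at 8.92 with IL-2 at 4 hr and between 3.01 and 4.96 in the other treated cells. With IL-2-REH, Dhx58, Ifit1, Isg15, Mx1, Oas3, Rtp4, Usp18 and Zbp1 were past 2-fold lower at both times, Gbp6, Ifit2, Ifit3 and Xaf1 at 90 min, and Irf7, Irf8, Isg20 and Bst2 at 4 hr.

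In Tregs the same genes split the unstimulated libraries. Ifit3 was at 0.765 RPKM in unstimulated replicate 1 and at 5.72 and 5.06 in replicates 2 and 3, and all 12 libraries given a cytokine lay between 0.720 and 1.76. Mx1 was at 0.490, 2.56 and 2.1996 RPKM before and between 0.217 and 0.872 after. Zbp1 was at 10.9, 42.3 and 35.9 RPKM before and between 10.6 and 29.7 after. Replicates 2 and 3 thus stood above every treated library for these 3 genes, while replicate 1 lay within or near their range. The macrophage sum given above is ordered the same way among the unstimulated libraries, and its part in the result was not tested. Isg15 was highest in replicate 1, at 24.8, 14.2 and 11.6 RPKM.

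Whether these genes were called therefore turned on the model. With 1 mean a group, 0 members fell in any comparison with unstimulated Tregs, although the 14 antiviral effectors had a median log2 fold change of -1.29 with IL-2 at 4 hr and -1.01 with IL-2-REH, where all genes had -0.0017 and 0.014. Same-numbered libraries were taken as paired, as described with the processing. With the number as a block, 7 members fell with IL-2 at 4 hr, against 4.06% of genes, and 5 rose, against 2.85%. Those that fell were Gbp9, Ifih1, Irf7, Isg20, Mx1, Oas3 and Rsad2. Mx1 fell by 2.14 on the log2 scale (SE 0.53, adjusted p = 0.029 in the blocked edgeR fit) and Oas3 by 1.49 (SE 0.33, adjusted p = 0.018). Ifih1, the RNA sensor MDA5, fell by 1.40 (SE 0.30, adjusted p = 0.016), and Irf7, the factor that amplifies type I interferon, by 0.90 (SE 0.24, adjusted p = 0.038). Oas3 and Gbp9 were lower with IL-2 at 4 hr in all 3 pairs. With IL-2-REH at 4 hr 6 members fell with the block, against 2.02%, namely Gbp9, Ifih1, Irf8, Isg20, Oas2 and Oas3, and 0 rose. Gbp9 fell by 1.48 on the log2 scale (SE 0.22, adjusted p = 0.0036 from edgeR with the block).

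Without unstimulated library 1, more members were called. With IL-2, 9 fell at 90 min, against 5.8% of genes, and 13 at 4 hr, against 4.59%. In the same fits 3 rose at 90 min, against 7.09%, and 5 at 4 hr, against 4.28%. With IL-2-REH, 10 fell at 90 min, against 5.14%, and 16 at 4 hr, against 3.62%. Gbp3, Gbp5 and Isg15 rose with IL-2-REH at 90 min (3 members, against 6.95%), and 0 rose at 4 hr, against 3.3%. Ddx58, Dhx58, Ifit1, Ifit2, Ifit3, Mx1, Oas3 and Zbp1 were called lower in all 4. The macrophage and NK marker sums were also lower after culture in replicates 2 and 3. The 4 comparisons share the same control libraries.

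Irf1, Ifi47 and Irf9 were not called in any Treg comparison, with or without the replicate block. Irf1, a factor that both interferons induce, was at 145, 88.5 and 120 RPKM in unstimulated Tregs and at 40.9, 133 and 78.9 with IL-2 at 4 hr, and in CD8+ cells it lay between 78.1 and 121. Ifi47, an immunity-related GTPase, was at 34.2, 79.4 and 70.8 RPKM in unstimulated Tregs and at 39.6, 114 and 29.6 with IL-2 at 4 hr. In CD8+ cells, Ifi47 went from 69.3 RPKM to 135 and 196 with IL-2 and to 78.6 and 82.2 with IL-2-REH. Irf9, the DNA-binding partner of STAT2, lay between 17.8 and 42.5 RPKM over all Treg libraries and between 23.5 and 27.5 in CD8+ cells.

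Usp18, the protease that removes Isg15 and restrains type I receptors, was lowest in the first of the unstimulated Treg libraries. It was at 2.54, 14.0 and 12.2 RPKM in replicates 1 to 3, and at 10.3, 5.06 and 6.91 with IL-2 at 90 min. Isg20, an exonuclease, was at 7.41, 18.2 and 13.6 RPKM before and at 6.10, 4.13 and 3.66 with IL-2-REH at 4 hr, lower in each pair. Its edgeR adjusted p in that comparison was 0.0836, and 0.0219 with the replicate block. Gbp9, a guanylate-binding protein, was at 15.6, 41.0 and 32.5 RPKM before and at 8.83, 14.6 and 6.88 with IL-2-REH at 4 hr, with an edgeR adjusted p of 0.126, and of 0.00358 with the replicate block. Gbp6 was at 11.01, 28.9 and 26.9 RPKM before and at 6.28, 8.91 and 9.32 in the same comparison, without overlap. Bst2, which tethers budding viruses, was at 22.9, 28.7 and 24.5 RPKM before and lay between 11.3 and 22.2 in the 12 treated libraries.

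IL-2-REH and IL-2 at the same time in Tregs differed by less than the test could call, though with 1 sign for many members. At 90 min 0 members were called, where 0.0133% of genes were, and at 4 hr 0, where 0.0267% were. At an unadjusted p under 0.05 in edgeR, 3 members were lower at 90 min (Gbp5, Irf8 and Parp14), against 0.813% of genes, and 5 at 4 hr (the same 3 with Gm12250 and Stat2), against 2.37%. At that p 0 were higher at either time, against 0.18% and 1.35%. DESeq2 called 0 at 90 min and 1, Gbp5, at 4 hr, against 0.386%, and limma called 0 at both. Looked at by same-numbered pair, 25 of 41 members were lower with IL-2-REH in all 3 pairs at 90 min, against 16.8% of all genes, and 2 were higher in all 3, against 21.4%. By role, 12 of 15 GTPases were among the 25, with Parp9, Parp14 and Ifi35 and 5 of 11 antiviral effectors. At 4 hr 8 of 41 were lower in all 3 pairs, against 13.3%, and 1 was higher in all 3, against 29.8%. On the lower side, the count at 4 hr lay closer to the background than that at 90 min. All 8 were among the 25 at 90 min: Gbp5, Gbp7, Gm12250, Ifi35, Irf8, Parp14, Parp9 and Stat2. The libraries at 90 min and 4 hr are separate ones.

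**Figure D5:**
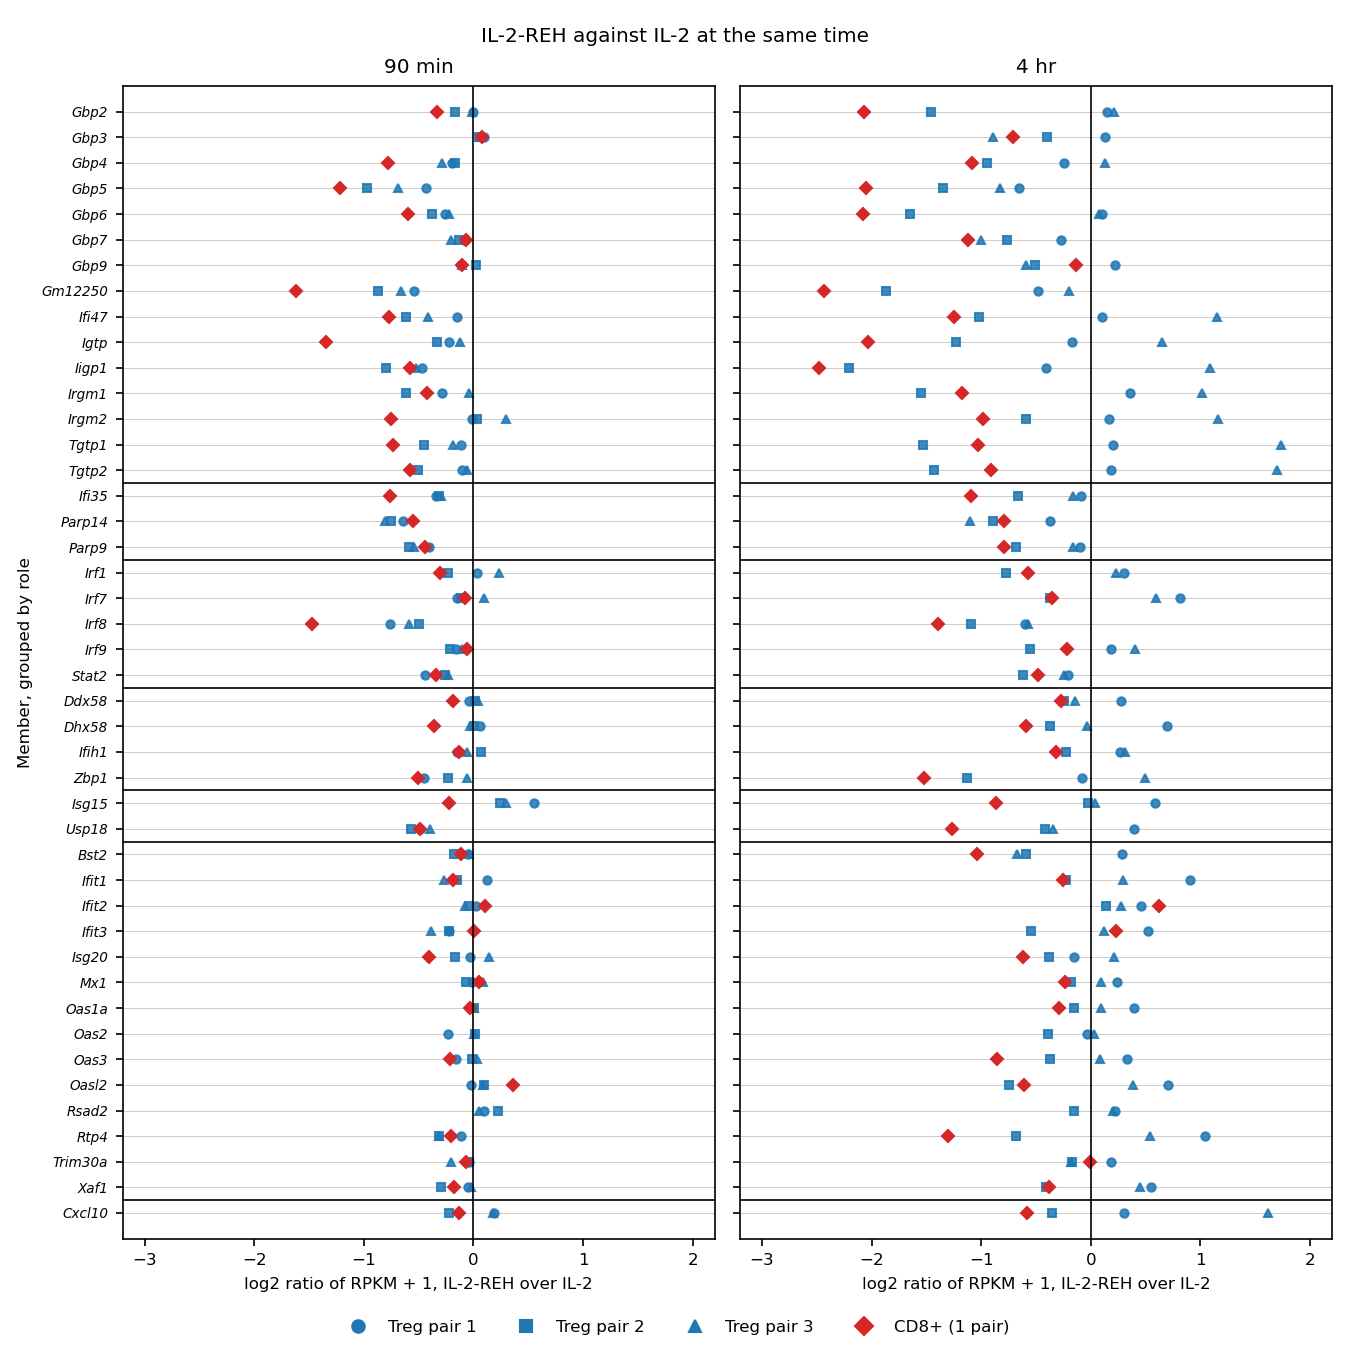
Log2 ratio of RPKM + 1 of IL-2-REH over IL-2 at the same time (horizontal axis) for 44 members grouped by role, at 90 min and 4 hr, with blue symbols for the 3 Treg pairs and red diamonds for the CD8+ pair. At 90 min most GTPase, Parp9, Parp14 and Ifi35 symbols lie left of 0. At 4 hr Treg pair 2 follows the CD8+ pair while pair 3 lies right of 0 for Tgtp1, Tgtp2, Iigp1 and Ifi47. Pair 1 also lies right of 0, by less, for Tgtp1, Tgtp2 and Ifi47.

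Parp14 showed the difference in each pair. At 90 min it was at 64.6, 51.8 and 45.8 RPKM with IL-2 in replicates 1 to 3 and at 41.1, 30.4 and 25.8 with IL-2-REH. The log2 fold change was -0.75 (SE 0.24), which edgeR did not call. At 4 hr it was at 30.2, 56.1 and 37.6 RPKM against 23.1, 29.7 and 16.9, a log2 fold change of -0.89 (SE 0.25, adjusted p = 0.64 from edgeR). Within each replicate number, then, the library with IL-2-REH was the lower one. Irf8 was at 9.72, 8.88 and 7.92 RPKM with IL-2 at 90 min and at 5.31, 5.99 and 4.93 with IL-2-REH, with no overlap. At 4 hr it was at 4.35, 9.19 and 6.34 RPKM against 2.54, 3.78 and 3.94, with a log2 fold change of -1.001 (SE 0.26, adjusted p = 0.53 by edgeR). The adjusted p was 0.080 once edgeR blocked on the replicate number. Gbp5 at 4 hr was at 37.0, 70.8 and 39.2 RPKM under IL-2 and at 23.2, 27.3 and 21.6 under IL-2-REH (log2 fold change -1.07, SE 0.26, adjusted p = 0.37 from edgeR). None of these 3 genes overlaps another gene in the annotation used. None passed the adjusted threshold in edgeR, while DESeq2 called Gbp5 at 4 hr.

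Iigp1, Tgtp1 and Ifi47 behaved otherwise at 4 hr. Iigp1 with IL-2-REH was at 7.70, 8.41 and 17.5 RPKM, beside 10.6, 42.5 and 7.70 with IL-2. Its log2 ratios by pair were -0.41, -2.21 and 1.09, so the pairs did not share a sign. In CD8+ cells, the ratio was -2.48. Treg pair 3 holds the shallowest library. Replicate 3 also differed in its marker RNA. Its erythroid list summed to between 97.2 and 170 RPKM, where Treg replicates 1 and 2 had 3.95 to 15.5. At 4 hr the B cell list of pair 3 summed to 17.2 RPKM in the IL-2-REH library and 7.42 in its partner. Pairs 1 and 2 had the same order, at 4.04 against 2.60 and 4.01 against 3.25. The part of these cells in the signs by pair was not tested. In pairs 1 and 2 alone, 13 of 41 members were lower, against 21% of genes under that looser rule.

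Between 90 min and 4 hr 0 members were called in Tregs, with IL-2 (0% of genes called) or with IL-2-REH (0%), and 0 for the change over time of the difference between the cytokines (0%). At an unadjusted p under 0.05 in edgeR 4 members were lower at 4 hr under IL-2, against 9.01% of genes, and 7 under the partial agonist, against 8.21%. At that p 0 were higher, against 7.98% and 6.37%, and for the change over time 0 were higher, against 0.107%, and 0 lower, against 0.207%. DESeq2 called 1 member with IL-2, Ifih1, against 2.55%, and 0 with IL-2-REH or for the change over time, and limma called 0 in all 3. Cxcl10, a chemokine that draws T cells, was at 8.72, 9.61 and 5.38 RPKM with IL-2 at 90 min and at 3.91, 6.11 and 1.32 at 4 hr, lower in each pair.

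The upstream genes of the pathway were listed as well, 16 in all, of which 15 were tested in Tregs. Ifnb1, the gene for interferon beta, was listed at 0 in all 20 libraries. Ifng, the gene for interferon gamma, was at 2.3997, 4.46 and 8.83 RPKM in unstimulated Tregs and at 0.298, 2.47 and 0.1003 with IL-2 at 4 hr. In CD8+ cells, it was at 7.89 RPKM before, 3.25 and 1.70 under IL-2, and 0.905 and 0.561 under IL-2-REH. Socs1, an inhibitor of JAK signalling that IL-2 induces, rose with IL-2 in Tregs at 90 min (log2 fold change 2.28, adjusted p = 0.011 from edgeR) and 4 hr (2.36, adjusted p = 0.0069), and was the 1 pathway gene called in each. In CD8+ cells, Socs1 was at 9.25 RPKM before, 36.2 and 42.3 under IL-2, and 8.76 and 9.81 under IL-2-REH. Cish, a direct target of IL-2 and no member of the interferon set, was at 1.87 RPKM in CD8+ cells, 30.6 and 26.1 under IL-2, and 2.47 and 2.45 under IL-2-REH. Its Treg levels with IL-2-REH at 90 min (128, 117 and 97.0 RPKM) lay between those of unstimulated cells (54.7, 65.5 and 54.0) and of IL-2 (238, 262 and 187).

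A further list of 41 interferon-stimulated genes outside the set gave 40 tested genes in Tregs. With IL-2 at 4 hr 0 of them rose and 2 fell, Ifi203 and Ly6e, where 2.27% of genes were called. With the block 0 rose, against 2.85%, and 11 fell, against 4.06%. Their median log2 fold change without the block was -0.76. In CD8+ cells, with IL-2 at 4 hr, 4 of 32 were past 2-fold higher, Gbp11, Ly6a, Slfn1 and Slfn2, against 1.31% of genes, and 2 were lower, against 3.4%.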

How the data were processed

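RNA of 15 Treg and 5 CD8+ T cell libraries was analysed. The authors mapped reads to mm10 (GRCm38), and their processing notes name Bowtie2 2.2.6, TopHat2 2.1.1, SAMtools 0.1.8 and bedtools 2.25.0. The deposited read counts are unnormalized reads on the exons of 31682 RefSeq transcripts. The deposited RPKM values are these reads scaled to exon length and mapped reads. Whether strand was used in counting is not given in the sources used here, so reads of overlapping genes are uncertain (14 of the 43 members with an annotated position overlap another gene). Each gene was taken by its most-read transcript.

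For Tregs, counts were tested in R 4.3.3 with edgeR 4.0.16 (TMM, filterByExpr, glmQLFit and glmQLFTest), with 1 mean a group over all 15 libraries, and p-values were adjusted over 15009 genes by the Benjamini-Hochberg method with a threshold of 0.05. The design allowed for RPKM or counts, and counts were used since they were present. Nothing says that replicates came from separate animals, so p-values measure the spread between these libraries. Same-numbered libraries were taken as paired, because their deviations from the group means correlated in every pair of groups (r of 0.12 to 0.84 over 30 pairs of libraries). For different numbers r ran from -0.66 to 0.30. Their mean of -0.26 is no evidence of pairing, since deviations within a group sum to 0. Pairing was weakest for replicate 3: unstimulated library 3 had r of 0.12 with IL-2 library 3 at 4 hr and 0.30 with IL-2 library 2. No pair of libraries held identical values (0 pairs). For CD8+ cells and for pairs, log2 ratios of RPKM + 1 were restricted to genes averaging at least 1 RPKM, which understates changes of low genes. RPKM values come without an interval, and counting error is not included. Alternatives were DESeq2 1.42.0, the replicate block, limma 3.58.1 on log2 RPKM with a pseudocount of 1 or 0.1, RLE size factors, other filters, the longest transcript, fewer groups and fewer libraries. Figures were drawn with matplotlib 3.10.9.

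The members and lists were chosen with earlier results of these data known. Members were described in full where called in Tregs, past 2-fold in CD8+ cells, among the 5 with the widest range of Treg group means or among the 10 with the highest level. The motif arrangement, the counts by pair and the order of libraries were chosen after their values were seen. The values of 1 upstream pathway gene are not reported here.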

Additional observations from a re-analysis of the deposited data

How the results depend on the processing

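Calls in Tregs depended on the model and the libraries. With the replicate block, 12 members were called with IL-2 at 4 hr and 6 with IL-2-REH at 4 hr, where 4 and 0 had been, and this pairing changed the count of no other Treg comparison. DESeq2 called 4 members with IL-2 at 90 min, where 333 of 15009 genes rose and 220 fell. At 4 hr it called 14, where 460 genes rose and 536 fell. With IL-2-REH it called 3 at 90 min, against 0.753%, and 11 at 4 hr, against 3.76%. It also called 1 between the cytokines at 4 hr, against 0.386%, and 1 between the times with IL-2, against 2.55%. Limma, with either pseudocount, called 1 with IL-2 at each time. With a pseudocount of 1, 97 of 10473 genes rose and 11 fell at 90 min, and 111 rose and 155 fell at 4 hr. A fit of only the groups compared called 0 members. In that fit 30 of 13713 genes rose and 1 fell with IL-2 at 90 min, and 13 of 13899 rose and 2 fell at 4 hr. Without a filter 1 member was called with IL-2 at 90 min, where 108 of 20231 genes rose and 10 fell. With a mean RPKM of at least 5 the count was also 1, where 99 of 7089 genes rose and 39 fell. In fits that left out libraries, the counts ran from 0 to 12 with IL-2 at 90 min, 0 to 18 with IL-2 at 4 hr, 0 to 13 with IL-2-REH at 90 min and 0 to 19 with IL-2-REH at 4 hr, the highest of them without unstimulated library 1 or replicate 1, while Gbp5 was lost with IL-2 only in the fits without replicate 2 or 3 and in that of the groups compared. Calls over all genes moved as widely in these fits. With IL-2 at 90 min they ran from 0 of 15309 genes without replicate 3 to 1315 higher and 1194 lower of 14477 without replicate 1. With IL-2 at 4 hr, 2 of 15197 genes rose and 1 fell without replicate 2. Without replicate 1, 980 of 14477 rose and 957 fell. With IL-2-REH, 0 of 15197 genes were called at either time without replicate 2. Without replicate 1, 1264 rose and 1005 fell at 90 min, and 735 rose and 810 fell at 4 hr. The cause was not tested.

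In CD8+ cells, a threshold of 4-fold left 0 members with IL-2 at 90 min, 5 with IL-2 at 4 hr, 0 with IL-2-REH at 90 min, 2 with IL-2-REH at 4 hr, 0 and 6 between the cytokines at 90 min and 4 hr, and 2 and 0 between the times with IL-2 and IL-2-REH. With a mean RPKM of at least 5, which leaves 30 members, the counts were 8 with IL-2 at 90 min, 7 and 6 with IL-2-REH at 90 min and 4 hr, and 1 between the times with IL-2-REH, which became 4 with a pseudocount of 0.1. Centring on medians, TMM scaling, no filter and the longest transcript kept each CD8+ count within 1.5 times of that reported. The shares of all genes under these CD8+ settings are not given here, so the counts describe the settings alone. The members lower in all pairs with IL-2-REH against IL-2 at 4 hr were 13 without replicate 3, where agreement in 2 pairs was enough and 21% of all genes met it. Low members are limited by depth, with 20 reads on the lowest.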
